A study of Mus musculus with 12 samples.

Results

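The genes described here are *Trp53*, which encodes p53, its inhibitor *Mdm2*, and 8 genes whose transcription p53 activates: *Bax*, *Bbc3*, *Pmaip1*, *Fas*, *Gadd45a*, *Sesn1*, *Sesn2* and *Zmat3*. They were taken by name, through their Ensembl gene IDs, and make up 10 of the 46983 genes in the data. All 10 passed the filter on low values, 3 or more libraries with 0.1 FPKM or more, as did 18023 genes in all. FPKM is the number of sequenced fragments on a gene per kilobase of transcript, scaled by the number of mapped fragments of the library. Levels between genes therefore depend on the length used for each gene. Levels between libraries are adjusted for depth, but not for differences in the composition of their RNA.

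RNA was sequenced from C2C12 cells, a mouse skeletal myoblast line that fuses into myotubes when it differentiates. The PPARγ/+ cells carried a PiggyBac vector (PB-IP) with the coding sequence of the nuclear receptor PPARγ and had been selected with puromycin, and the WT cells were the control group of that vector. Both were sampled as growing myoblasts (0d) and on day 5 of differentiation (5d), which gave the groups WT_0d, WT_5d, PPARγ/+_0d and PPARγ/+_5d with 3 libraries each. The series text calls the cells inducible and the controls uninduced, but the methods of the study name no inducer. The selected cells are described as positive clones, without how many, and the libraries of a group as biological replicates, without whether these were separate cultures. The p-values therefore measure the spread between these libraries.

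p53 is a transcription factor that is present at a low level in unstressed cells, because Mdm2, a ubiquitin ligase, marks it for degradation. DNA damage and other stresses free p53 from Mdm2, and p53 then activates genes that stop the cell cycle, repair DNA or start apoptosis, and *Mdm2* itself, which closes a feedback loop. Much of this control acts on the protein, which was not measured here. In myoblasts that leave the cell cycle the inhibitor *Cdkn1a* can also be induced by MyoD without p53.

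The libraries held between 15558652 and 22014056 fragments on genes, and each member was counted on 77 fragments (*Fas*, WT_0d) or more in every library. *Pparg*, the gene on the vector, lay between 28.0 and 92.7 FPKM in the 6 PPARγ/+ libraries and between 3.12 and 7.56 FPKM in the 6 WT libraries. The 10 myotube markers rose in both cell types, each past the test below, and the adipocyte markers *Adipoq* and *Fabp4* were at or near 0 in WT cells and present in PPARγ/+ cells. Not all adipocyte markers were absent from WT cells, as *Cd36* was at 0.709 to 2.20 FPKM in WT_5d. The 8 listed summed to 5.84 to 9.79 FPKM in the WT libraries and 11.7 to 149 FPKM in the PPARγ/+ libraries. Markers set 3 libraries apart from their groups. The summed level of the myotube markers was 4256 and 3246 FPKM in WT_5d replicates 1 and 2 and 952 FPKM in replicate 3, against 963 to 1134 FPKM in PPARγ/+_5d. It was also 108 FPKM in WT_0d replicate 2, against 16.5 and 10.7 FPKM in replicates 1 and 3. The 8 adipocyte markers summed to 149 FPKM in PPARγ/+_5d replicate 3, against 48.6 and 58.9 FPKM in replicates 1 and 2. Without WT_0d replicate 2 the members called between the days in WT cells were 4 in place of 3, *Bax* being added, and without PPARγ/+_5d replicate 3 the 3 called in PPARγ/+ cells stayed at 3, while values without WT_5d replicate 3 stand beside the results it changed. In these bulk samples fewer cells of a type and less RNA per cell cannot be told apart.

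Between 0d and 5d the genes of the p53 pathway did not move one way. *Fas* and *Gadd45a* rose more than 2-fold in both cell types, and *Pmaip1* did so in WT cells. *Bax* fell more than 2-fold in PPARγ/+ cells and was 1.94-fold lower in WT cells, just short of 2-fold. *Trp53*, *Mdm2* and *Zmat3* had lower means on 5d than on 0d in both cell types, by less than 2-fold. A gene was called changed between the days if its unadjusted p-value did not exceed 0.05 and its level changed 2-fold or more, and "rose" and "fell" are used here only for called genes. Fold changes are on the scale of log2(FPKM + 0.1), and adjusted p-values are those of limma over all 18023 genes.

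**Figure D1:**
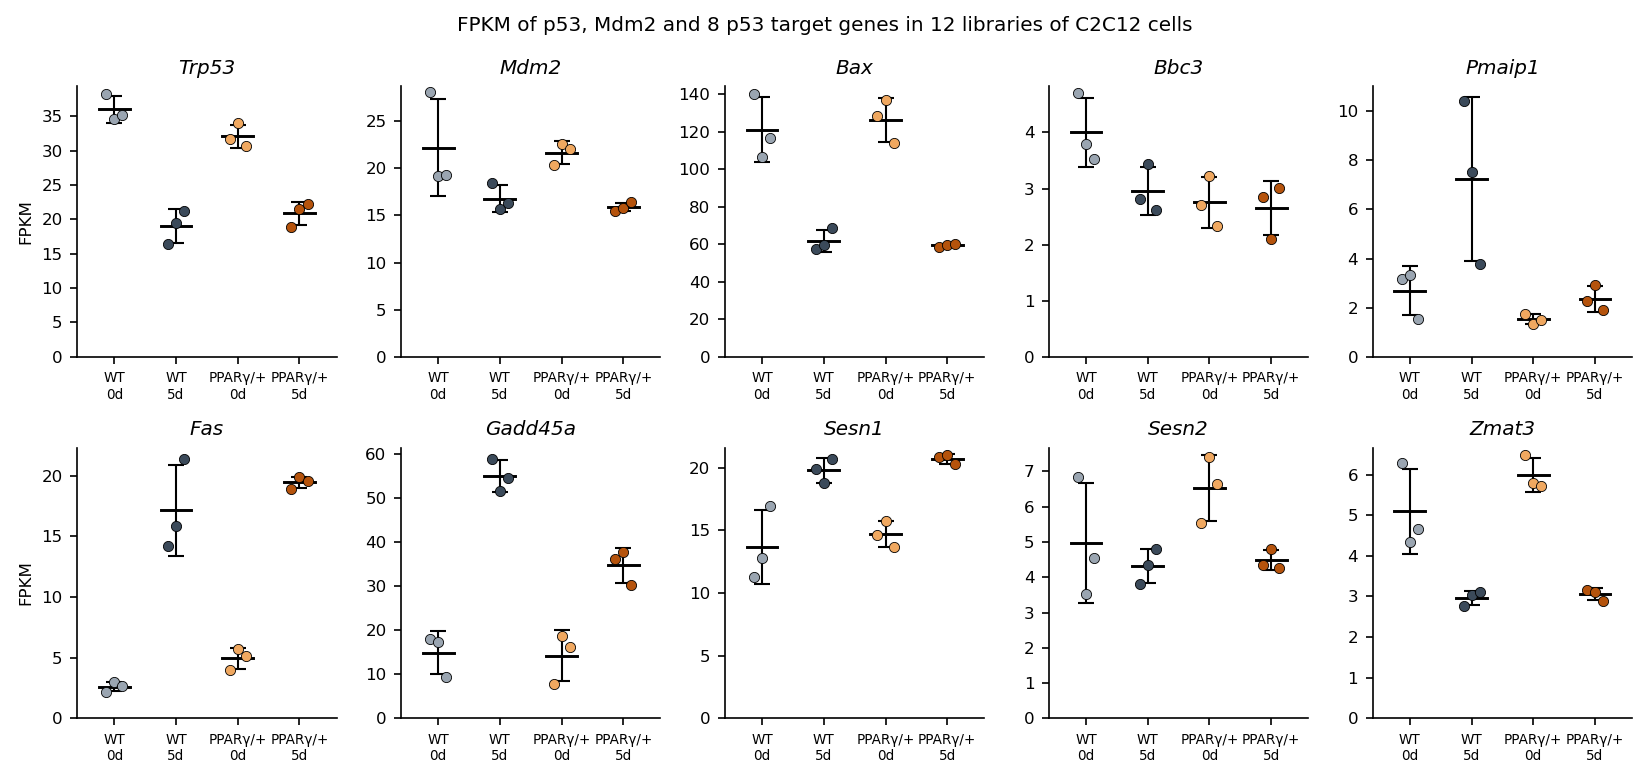
FPKM (y axis, linear, from 0) of each of the 10 genes in the 3 libraries of each group (points), with the group mean (line) and SD (bar). *Fas* is between 2.20 and 5.73 FPKM in the libraries of 0d and between 14.2 and 21.4 FPKM in those of 5d, while *Trp53* and *Bax* are lower in every library of 5d than in any library of 0d.

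*Trp53* (ENSMUSG00000059552) lies on the forward strand of chr11:69580359-69591873 of GRCm38. Its FPKM in replicates 1 to 3 was 38.3, 34.6 and 35.2 in WT_0d, and 16.4, 19.4 and 21.3 in WT_5d. In PPARγ/+ cells it was 31.6, 33.98 and 30.6 on 0d, and 19.0, 21.5 and 22.2 on 5d. Every library of 5d was therefore below every library of 0d. The mean in WT cells was 36.0 ± 1.998 FPKM on 0d and 19.0 ± 2.49 FPKM on 5d (SD, n = 3 each), a difference of -0.93 on the log2 scale (SE 0.11, adjusted p = 0.00157), or 1.90-fold lower. In PPARγ/+ cells the difference was -0.62 (SE 0.08, adjusted p = 0.000773), or 1.54-fold lower. Both were short of the 2-fold threshold, which the WT difference passed only without WT_5d replicate 3, at -1.01. The near copy of the coding sequence that mice carry as a processed pseudogene, *Trp53-ps*, was above 0 in 1 of the 12 libraries, at 0.272 FPKM.

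*Mdm2* (ENSMUSG00000020184) lies on the reverse strand of chr10:117688875-117710758. Its FPKM was 28.1, 19.2 and 19.3 in WT_0d, and 18.4, 15.7 and 16.3 in WT_5d. PPARγ/+ cells had 20.3, 22.6 and 22.1 on 0d, and 15.5, 15.8 and 16.4 on 5d. The libraries of the days did not overlap in either cell type, but in WT cells replicate 1 of 0d alone stood well above the others. The difference was -0.38 in WT cells (SE 0.16, adjusted p = 0.117) and -0.44 in PPARγ/+ cells (SE 0.06, adjusted p = 0.00111), the latter 1.36-fold lower. *Mdm4*, a relative of Mdm2 that blocks the activity of p53, differed by 0.21 in WT cells (adjusted p = 0.103) and by 0.32 in PPARγ/+ cells (adjusted p = 0.0498), and was not called.

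The sequences upstream of these genes are of interest because p53 binds DNA as a tetramer on paired copies of a 10-letter half-site. The RefSeq table of promoters (GRCm38.p6) holds 11 transcription starts for 8 of the 10 genes, and none for *Pmaip1* or *Zmat3* was used. The 250 bases before each start were searched for the half-site, whose consensus reads the same on both strands. It was present in 5 of the 11 windows, 1 each for *Trp53*, *Mdm2*, *Bax*, *Gadd45a* and *Sesn1*, and in 7.13% of the 32851 windows of all genes. No window of *Bbc3*, *Fas* or *Sesn2* held one, which says only that these letters are not in these windows. The windows of *Trp53*, *Mdm2* and *Bax*, which had lower means on 5d, and of *Fas*, which rose, are shown from 5′ to 3′ on the strand of the gene, with the half-site in capitals and the base before the start at the right-hand end. They are chr11:69580109-69580358 on the forward strand for *Trp53*, chr10:117710759-117711008 on the reverse strand for *Mdm2*, chr7:45466899-45467148 on the reverse strand for *Bax*, and chr19:34290409-34290658 on the forward strand for *Fas*.
Trp53: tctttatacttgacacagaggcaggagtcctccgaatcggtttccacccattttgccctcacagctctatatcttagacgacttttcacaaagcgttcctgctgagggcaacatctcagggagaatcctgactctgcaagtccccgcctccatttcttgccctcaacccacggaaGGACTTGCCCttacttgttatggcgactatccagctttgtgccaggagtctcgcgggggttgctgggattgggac
Mdm2: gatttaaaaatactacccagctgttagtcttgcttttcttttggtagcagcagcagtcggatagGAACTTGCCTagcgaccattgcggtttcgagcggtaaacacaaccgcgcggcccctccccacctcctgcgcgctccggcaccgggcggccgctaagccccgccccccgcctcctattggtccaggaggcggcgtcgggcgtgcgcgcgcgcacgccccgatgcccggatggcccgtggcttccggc
Bax: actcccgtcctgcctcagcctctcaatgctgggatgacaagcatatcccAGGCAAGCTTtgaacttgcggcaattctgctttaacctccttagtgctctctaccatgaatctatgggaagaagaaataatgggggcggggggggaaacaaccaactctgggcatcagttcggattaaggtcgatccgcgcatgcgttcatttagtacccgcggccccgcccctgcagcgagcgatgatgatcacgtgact
Fas: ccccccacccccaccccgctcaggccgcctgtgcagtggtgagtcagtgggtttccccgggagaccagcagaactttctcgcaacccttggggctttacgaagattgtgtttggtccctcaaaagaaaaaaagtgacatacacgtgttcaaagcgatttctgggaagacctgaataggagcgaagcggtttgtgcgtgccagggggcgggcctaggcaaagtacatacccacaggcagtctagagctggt
The half-site began 75 bases before the start of *Trp53*, 186 before that of *Mdm2* and 201 before that of *Bax*. In *Gadd45a* it read GGGCTAGCCC and began 40 bases before the RefSeq start, and in *Sesn1* it read AAGCTTGTTT and began 173 bases before the second start listed. Both of these genes had higher means on 5d, while *Bbc3* and *Sesn2*, without a half-site, had lower means. Members with a half-site were therefore found in either direction. A match to 1 half-site is a description of the sequence and was not tested as a binding site, and the best known p53 sites of *Mdm2* lie in its first intron, outside this window.

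Of the 4 members that act in apoptosis, *Bax* was the most abundant. *Bax* (ENSMUSG00000003873, reverse strand of chr7:45461697-45466898) encodes the protein that makes pores in the mitochondrial outer membrane. Its FPKM was 140, 106 and 117 in WT_0d, and 57.7, 59.6 and 68.8 in WT_5d. The PPARγ/+ libraries gave 128, 137 and 114 on 0d, and 58.8, 59.6 and 60.1 on 5d. All 6 libraries of 5d were thus between 57.7 and 68.8 FPKM, and none of 0d was under 106 FPKM. *Bax* fell by 1.08 on the log2 scale in PPARγ/+ cells (SE 0.07, adjusted p = 8.66e-05), or 2.12-fold. The difference in WT cells was -0.96 (SE 0.13, adjusted p = 0.00228), or 1.94-fold lower, just short of the threshold. With the libraries scaled by the median ratio or by quantiles the value in PPARγ/+ cells was -0.95 or -0.98 and no longer called, whereas without WT_0d replicate 2 or WT_5d replicate 3 the value in WT cells was -1.05 or -1.04 and was called. Of the 1576 exonic bases annotated for *Bax*, 192 are shared with the gene model Gm45808 on the same strand, which was not analysed here.

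*Pmaip1* (ENSMUSG00000024521, chr18:66458533-66465565, forward strand) encodes Noxa, a BH3-only protein that binds antiapoptotic proteins of the Bcl2 family. Its FPKM was 3.18, 3.34 and 1.53 in WT_0d, and 10.4, 7.54 and 3.77 in WT_5d. In PPARγ/+ cells it was 1.73, 1.33 and 1.51 on 0d, and 2.28, 2.92 and 1.89 on 5d. The days were apart in both cell types, and the WT_5d libraries had the widest spread of any group, with replicate 3 the lowest as for the myotube markers. *Pmaip1* rose by 1.36 in WT cells (SE 0.44, adjusted p = 0.0532), or 2.56-fold. That call rested on few libraries: it was lost without WT_0d replicate 3 (1.01), WT_5d replicate 1 (1.04) or WT_5d replicate 2 (1.27), and the value without WT_5d replicate 3 was 1.76. In PPARγ/+ cells the difference was 0.59 (SE 0.18, adjusted p = 0.035), which was not called.

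*Bbc3* (ENSMUSG00000002083, chr7:16308393-16318205, forward strand) encodes Puma, another BH3-only protein. It was measured at 3.53 to 4.698 FPKM in WT_0d and at 2.62 to 3.43 FPKM in WT_5d, with no overlap, and at 2.33 to 3.23 and 2.11 to 3.002 FPKM in PPARγ/+_0d and PPARγ/+_5d, which overlapped. The difference between the days was -0.42 in WT cells (SE 0.16, adjusted p = 0.0808) and -0.06 in PPARγ/+ cells (95% interval -0.47 to 0.36), and it was not called.

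*Fas* (ENSMUSG00000024778, chr19:34290666-34327772, forward strand) encodes the receptor of the Fas ligand at the cell surface, which starts the extrinsic path of apoptosis. Its FPKM was 2.20, 2.99 and 2.66 in WT_0d, and 14.2, 15.8 and 21.4 in WT_5d. The values in PPARγ/+ cells were 3.96, 5.73 and 5.11 on 0d, and 18.9, 19.9 and 19.5 on 5d. These levels separated the days completely. *Fas* rose by 2.65 in WT cells (SE 0.18, adjusted p = 0.000292), or 6.28-fold, and by 1.97 in PPARγ/+ cells (SE 0.13, adjusted p = 7.48e-05), or 3.92-fold, the largest change of the 10 genes in each cell type.

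The 4 remaining members act in growth arrest, metabolism and RNA control. *Gadd45a* (ENSMUSG00000036390, reverse strand of chr6:67035096-67037457) encodes a stress protein that binds PCNA and p21 and activates MAP kinase signaling. Its FPKM was 18.03, 17.4 and 9.35 in WT_0d, and 58.8, 51.6 and 54.4 in WT_5d. PPARγ/+ cells had 7.76, 18.7 and 16.1 on 0d, and 36.1, 37.6 and 30.3 on 5d. The lowest library of 5d was above the highest of 0d in both cell types, and 1 library of 0d in each cell type, at 9.35 FPKM in WT and 7.76 FPKM in PPARγ/+ cells, was well under the other two. *Gadd45a* rose by 1.93 in WT cells (SE 0.25, adjusted p = 0.00213), or 3.82-fold, and by 1.37 in PPARγ/+ cells (SE 0.31, adjusted p = 0.0109), or 2.59-fold. Without PPARγ/+_0d replicate 1 the latter was 0.99 and fell short of the threshold. An antisense gene, *E230016M11Rik*, shares 337 of the 1764 exonic bases of *Gadd45a*, and since the counting is not stated to use strand, reads there cannot be assigned to one of them, but its mean was 0.737 FPKM.

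The sestrins restrain mTORC1 signaling when amino acids are short or the cell is stressed. *Sesn1* (ENSMUSG00000038332, chr10:41809935-41908424, forward strand) was at 11.3, 12.8 and 17.0 FPKM in WT_0d, and at 19.9, 18.8 and 20.7 FPKM in WT_5d. In PPARγ/+ cells it was at 14.7, 15.7 and 13.7 FPKM on 0d, and at 20.8, 21.02 and 20.3 FPKM on 5d. Its level was higher on 5d in every library, by 0.55 in WT cells (SE 0.15, adjusted p = 0.0318) and 0.50 in PPARγ/+ cells (SE 0.06, adjusted p = 0.000951), or 1.46-fold and 1.41-fold, under the 2-fold threshold. *Sesn2* (ENSMUSG00000028893, reverse strand of chr4:132492032-132510501) was at 3.53 to 6.85 FPKM in WT_0d and 3.82 to 4.79 FPKM in WT_5d, which overlapped. PPARγ/+ cells were at 5.53 to 7.41 FPKM on 0d and 4.27 to 4.805 FPKM on 5d, which did not. The difference was -0.15 in WT cells (95% interval -0.74 to 0.43) and -0.53 in PPARγ/+ cells (SE 0.12, adjusted p = 0.00995), or 1.44-fold lower, under the 2-fold threshold. The sestrins thus had opposite signs in PPARγ/+ cells, while in WT cells the sign of *Sesn2* turned without WT_0d replicate 1, at 0.10.

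*Zmat3* (ENSMUSG00000027663, reverse strand of chr3:32334792-32366014) encodes a zinc finger protein that binds RNA. Its FPKM was 6.28, 4.33 and 4.67 in WT_0d, and 2.77, 3.03 and 3.10 in WT_5d. The values in PPARγ/+ cells were 6.48, 5.79 and 5.72 on 0d, and 3.16, 3.11 and 2.89 on 5d. Like *Bax*, it was at nearly the same level in all libraries of 5d. The difference was -0.74 in WT cells (SE 0.16, adjusted p = 0.0124) and -0.95 in PPARγ/+ cells (SE 0.08, adjusted p = 0.000208), or 1.67-fold and 1.93-fold lower, and was not called.

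**Figure D2:**
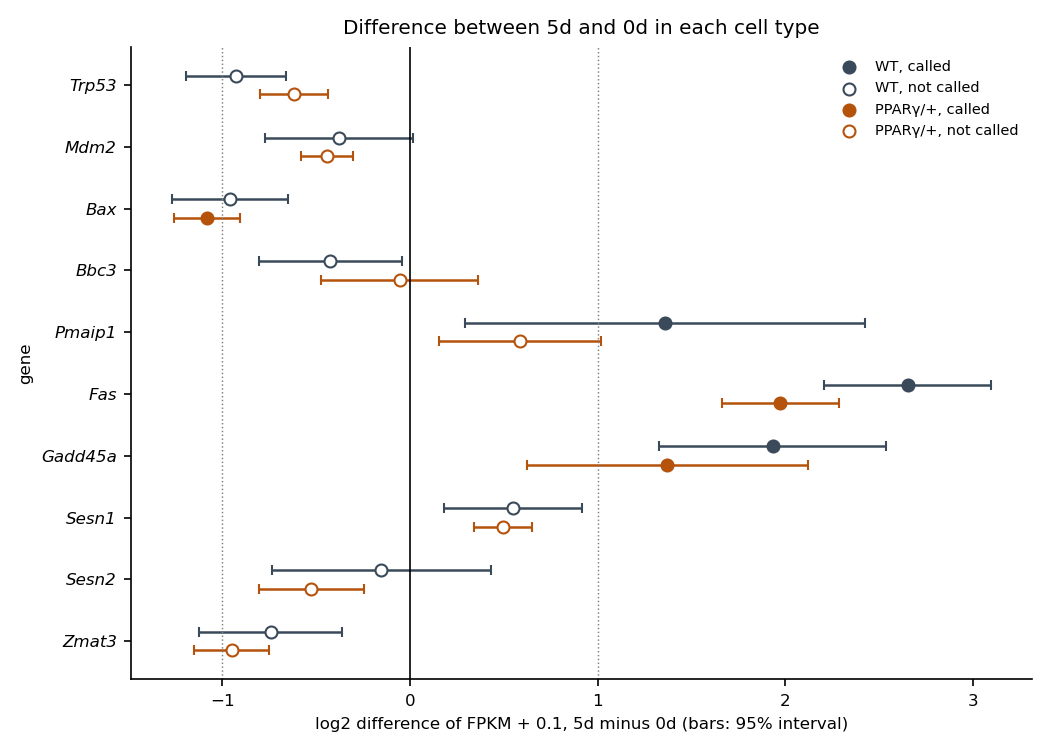
Difference between 5d and 0d (x axis, log2 of FPKM + 0.1) for each of the 10 genes in WT and PPARγ/+ cells, with 95% intervals. Filled points are called changed and the dotted lines mark 2-fold. *Pmaip1*, *Fas*, *Gadd45a* and *Sesn1* are above 0 in both cell types and the other 6 genes below it, and the intervals of the 2 cell types overlap for each gene.

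In WT cells 3 of the 10 genes were called, all of them higher on 5d, where 16.5% of all genes tested were called, 8.94% higher and 7.53% lower. In PPARγ/+ cells 3 were called as well, 2 higher and 1 lower, where 15.2% of all genes were called, 9.11% higher and 6.06% lower. With an adjusted p-value up to 0.05 at any fold, 6 of 10 passed in WT cells, 3 higher and 3 lower, where 37.1% of all genes did, 14.1% higher and 23% lower. In PPARγ/+ cells 9 of 10 passed, 4 higher and 5 lower, where 47.5% of all genes did, 18.8% higher and 28.8% lower. The 10 genes had a median difference of -0.27 (WT) and -0.25 (PPARγ/+), and all genes one of -0.08 and -0.10. Scaling by the median ratio raised the median of all genes to 0.03 and 0.02 and that of the 10 genes to -0.14 and -0.12. The signs given here held for each member under that scaling except for *Bbc3* in PPARγ/+ cells, which was then at 0.07. The libraries of 5d and 0d did not overlap for 9 of the 10 genes in WT cells and 9 of 10 in PPARγ/+ cells, against 51.1% and 58.1% of all genes.

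The change between the days was then compared between the cell types by the interaction term over all 12 libraries, which is the PPARγ/+ difference minus the WT difference. None of the 10 genes passed an adjusted p-value of 0.05, where 0.76% of all genes did. At an unadjusted p-value under 0.05 there were 2, where 12% of all genes passed, *Fas* at -0.68 (95% interval -1.20 to -0.16, adjusted p = 0.269) and *Trp53* at 0.31 (95% interval 9.38e-05 to 0.611, adjusted p = 0.416). A fit with voom on recovered fragments called none of the 10 either, and a fit with array weights called *Fas* (-0.60, adjusted p = 0.028), along with 2070 genes in all against 137 without weights. For *Pmaip1* the interval was wide, from -1.89 to 0.35, and for *Gadd45a* it was -1.52 to 0.39, so that neither 0 nor a 2-fold difference lay outside it with 3 libraries a group. For *Mdm2* it was -0.46 to 0.34 and for *Bax* -0.46 to 0.21.

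The 2 cell types were next compared within each day, where a call required both an adjusted p-value up to 0.05 and a 2-fold change. On 0d none of the 10 genes passed, where 1.59% of all genes did, and at an unadjusted p-value under 0.05 there were 3, where 21.7% of all genes passed. The fit with voom on recovered fragments called none of them on either day. *Fas* had the largest difference, at 0.88 (SE 0.18, adjusted p = 0.0563), or 1.84-fold higher, and its 3 PPARγ/+_0d libraries, at 3.96 to 5.73 FPKM, were all above the WT_0d libraries, at 2.20 to 2.99 FPKM. *Bbc3* was at -0.53 (SE 0.16, adjusted p = 0.142) and *Trp53* at -0.17 (SE 0.07, adjusted p = 0.212), and for both the PPARγ/+_0d libraries were all below the WT_0d libraries. Such a separation was found for 3 of the 10 genes and for 26.8% of all genes.

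On 5d none of the 10 genes passed, where 0.155% of all genes did, and at an unadjusted p-value under 0.05 there were 2, where 12.7% of all genes passed. *Pmaip1* was at 1.89 to 2.92 FPKM in PPARγ/+_5d and at 3.77 to 10.4 FPKM in WT_5d, a difference of -1.48 (SE 0.38, adjusted p = 0.226), or 2.79-fold lower. *Gadd45a* was at 30.3 to 37.6 FPKM and at 51.6 to 58.8 FPKM, a difference of -0.67 (SE 0.10, adjusted p = 0.0934), or 1.59-fold lower. These were also the only 2 members whose libraries did not overlap on 5d, as those of 18.5% of all genes did not. Without WT_5d replicate 3, the library with the lowest level of the myotube markers, *Pmaip1* was at -1.88 (adjusted p = 0.018) and passed, when 723 genes passed in all against 28 with it, and *Gadd45a* was at -0.67 (adjusted p = 0.0355), under 2-fold. With 1 library left out *Pmaip1* ranged from -1.88 to -1.16 and *Gadd45a* from -0.73 to -0.57. *Pmaip1* passed in 2 of 17 alternatives, with an adjusted p up to 0.57 over all of them. The summed myotube markers were 952 to 4256 FPKM in WT_5d and 963 to 1134 FPKM in PPARγ/+_5d, and their part in these differences was not tested. The intervals of the other members on 5d were narrow for *Mdm2* (-0.26 to 0.11), *Bax* (-0.25 to 0.14), *Sesn1* (-0.07 to 0.21) and *Zmat3* (-0.18 to 0.26).

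**Figure D3:**
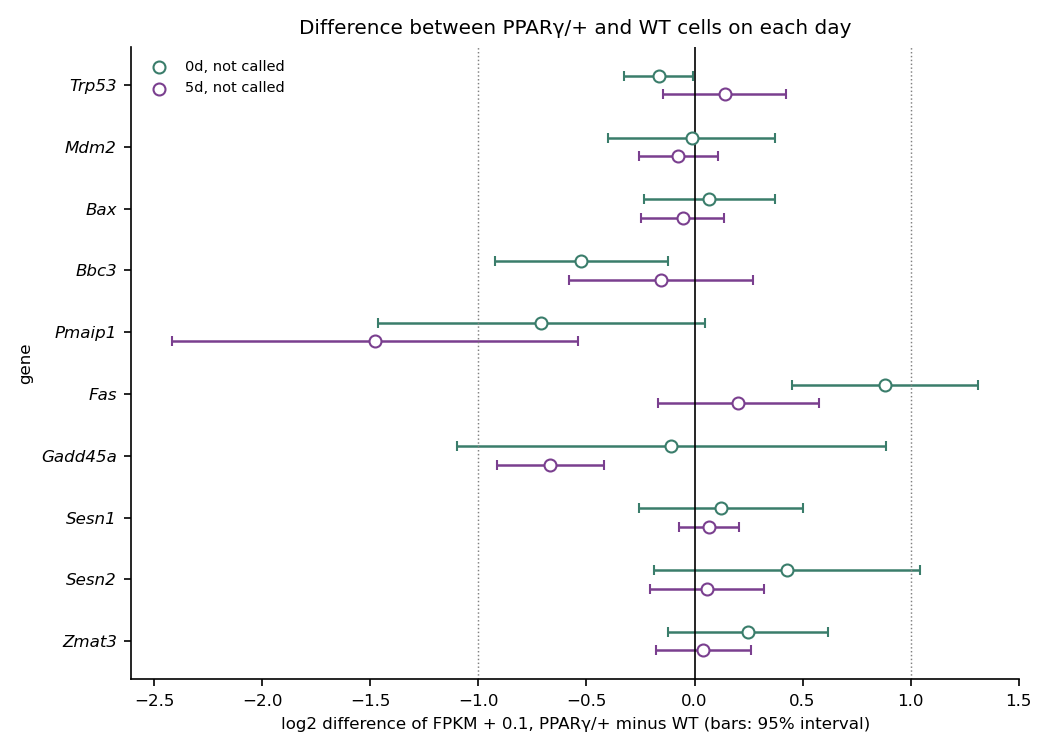
Difference between PPARγ/+ and WT cells (x axis, log2 of FPKM + 0.1) on 0d and on 5d for each of the 10 genes, with 95% intervals. No gene is called, and the dotted lines mark 2-fold. The estimates farthest from 0 are *Pmaip1* on 5d (-1.48), which has the widest interval of that day, and *Fas* on 0d (0.88).

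Among the members' mean levels on 0d in WT cells, *Bax* at 121 FPKM was the highest, followed by *Trp53* at 36.0, *Mdm2* at 22.2, *Gadd45a* at 14.9 and *Sesn1* at 13.7 FPKM, and the other 5 were between 2.62 and 5.09 FPKM. On 5d *Bax* remained the highest at 62.0 FPKM, with *Gadd45a* next at 55.0 FPKM, and the ranges of *Fas*, at a mean of 17.1 FPKM, and *Mdm2*, at 16.8 FPKM, overlapped. Such orders between genes depend on the length behind each FPKM, which was inferred for *Mdm2*, *Bax*, *Bbc3*, *Pmaip1*, *Fas* and *Sesn1*. For *Bax* it was 869 bases, against 1576 annotated exonic bases. In fragments *Gadd45a* was above *Bax* in WT_5d, at 1757 to 2644 against 999 to 1361. Across the 4 groups, *Trp53* was highest in WT_0d, then in PPARγ/+_0d, PPARγ/+_5d and WT_5d, and only the last pair in this order overlapped. *Gadd45a* was highest in WT_5d, then in PPARγ/+_5d, and the groups of 0d overlapped below them. *Fas* was highest in the groups of 5d, which overlapped, then in PPARγ/+_0d and then in WT_0d.

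The genes whose pattern over the 12 libraries was most like that of *Trp53* were *Nop14* (Pearson r = 0.994), a gene of ribosome assembly, *Sf3a2* (0.990), a splicing factor gene, and *Polr2a* (0.990), the largest subunit of RNA polymerase II, among 11680 genes with a mean of at least 1 FPKM. For *Mdm2* they were *Mrps10* (0.962), *Mcm3ap* (0.957) and *Fam222b* (0.954). Like *Trp53*, *Nop14* had a lower mean on 5d, at 11.6 FPKM against 16.9 FPKM in WT cells and at 12.3 FPKM against 16.0 FPKM in PPARγ/+ cells. Among the members themselves *Bax* and *Zmat3* were closest, at r = 0.969, and *Trp53* and *Bax* were at 0.952, while *Trp53* and *Fas* were at -0.917. The points share libraries and fall into 2 days, so that these values describe mainly the contrast of the days.

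Other p53 target genes were examined to place the members in the pathway. *Cdkn1a*, which encodes the cell cycle inhibitor p21, was at 84.6, 78.8 and 50.7 FPKM in WT_0d, and at 481, 419 and 189 FPKM in WT_5d. In PPARγ/+ cells it was at 67.9, 86.2 and 87.4 FPKM on 0d, and at 164, 174 and 162 FPKM on 5d. It rose by 2.27 in WT cells (SE 0.39, adjusted p = 0.00553) and by 1.06 in PPARγ/+ cells (SE 0.10, adjusted p = 0.000323), and without PPARγ/+_0d replicate 1 the latter was 0.94 and not called. The interaction was -1.21 (adjusted p = 0.272), and without WT_5d replicate 3 it was -1.63 (adjusted p = 0.0112). With 1 library left out it was -0.95 at the weakest. It passed in 2 of 21 alternatives, with an adjusted p up to 0.475 over all of them. On 5d *Cdkn1a* was at -1.01 in PPARγ/+ against WT cells (adjusted p = 0.335), and at -0.75 at the weakest with 1 library left out. It was called there in 2 of 17 alternatives, with an adjusted p up to 0.648. Without WT_5d replicate 3 the difference on 5d was -1.43 (adjusted p = 0.00604). That library had the lowest *Cdkn1a* of WT_5d, at 189 FPKM. Without it 527 genes passed in the interaction and 723 on 5d, against 137 and 28 with it. *Ccng1*, a cyclin gene induced by p53, was at -0.13 in WT cells (adjusted p = 0.562) and at -0.64 in PPARγ/+ cells (adjusted p = 0.000749), and was not called.

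Of a list of 37 further p53 targets, *Cdkn1a* included, 36 were tested. In WT cells 9 were called, 4 higher and 5 lower, with a median of -0.13. In PPARγ/+ cells 10 were called, 4 higher and 6 lower, with a median of -0.26. Of all genes tested 16.5% were called in WT cells and 15.2% in PPARγ/+ cells, with medians of -0.08 and -0.10. *Btg2*, an antiproliferative gene, rose by 1.70 in WT cells and by 1.74 in PPARγ/+ cells, and *Fdxr*, ferredoxin reductase, rose by 1.19 in PPARγ/+ cells and was at 0.95 in WT cells. The lowest were *Gtse1*, at -3.61 and -3.75, and *Ckap2*, at -3.00 and -3.65, both of which encode proteins of the mitotic spindle.

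Among 23 tested regulators of p53, of 25 listed, 1 was called higher and 2 lower in each cell type. Of all genes, 16.5% were called in WT cells and 15.2% in PPARγ/+ cells. The checkpoint kinase genes *Chek1* and *Chek2* fell by 2.32 and 1.99 in WT cells and by 2.23 and 1.92 in PPARγ/+ cells. *Trp63*, which encodes the p53 relative p63, was at 0.0103 to 0.126 FPKM in the libraries of 0d, some of them on only 2 fragments, and at 1.10 to 2.63 FPKM in WT_5d and 0.953 to 1.26 FPKM in PPARγ/+_5d. It rose in both cell types, and the fitted size, 3.84 and 2.75, varies with the value added before the logarithm: with 1 added in place of 0.1 it was 0.93 in PPARγ/+ cells and no longer called. The other members of the Bcl2 family were mixed, with 11 of 13 tested. *Bmf*, a BH3-only gene, rose by 2.91 and 2.60, *Bak1* and *Bok*, relatives of *Bax*, each fell by 1.03 in WT cells and were at -0.86 and -0.95 in PPARγ/+ cells, and *Bcl2* itself rose by 1.22 in PPARγ/+ cells and was at 0.35 in WT cells. The calls of the last 3 depended on the setting. *Bak1* was not called without WT_0d replicate 1 (-0.99) or WT_5d replicate 3 (-0.88), nor was *Bok* without WT_0d replicate 2 (-0.91), nor *Bcl2* with 1 added to the FPKM (0.75).

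Of 17 tested genes of death receptors and caspases, of 19 listed, 1 was called in each cell type, *Birc5*, whose product survivin also acts in mitosis and which fell by 3.66 and 3.81. The shares called between the days over all genes, 16.5% in WT and 15.2% in PPARγ/+ cells, apply here and to the lists that follow. Of 10 tested paralogs of the members, of 12 listed, 3 were called higher and 2 lower in WT cells and 1 higher in PPARγ/+ cells. They include *Trp63*, *Bak1* and *Bok*, which were already counted in the lists above. *Sesn3*, also among them, rose by 1.24 in WT cells and was at 0.84 in PPARγ/+ cells. Of 24 genes of the integrated stress response, which also induces *Sesn2*, 2 were called higher and 4 lower in WT cells, and 1 higher and 5 lower in PPARγ/+ cells. *Vldlr* rose most, by 2.53 and 1.72, and *Phgdh*, an enzyme of serine synthesis, fell by 1.92 in both. *Nupr1* rose by 1.04 and *Atf3* fell by 1.49 in WT cells, and they were at 0.50 and 0.23 in PPARγ/+ cells. *Asns*, asparagine synthetase, fell by 1.07 in WT cells and by 1.35 in PPARγ/+ cells, and the former was not called in 7 of 17 alternatives. The call of *Nupr1* was lost without WT_0d replicate 2 (0.97) or 3 (0.90). *Atf3*, a stress-induced transcription factor, was the 1 gene of these lists called between the cell types on 0d, at 0.799 to 0.979 FPKM in PPARγ/+_0d and 2.95 to 4.64 FPKM in WT_0d, a difference of -1.97 (adjusted p = 0.0132). It missed the threshold without WT_0d replicate 2, PPARγ/+_0d replicate 2 or PPARγ/+_0d replicate 3, at adjusted p = 0.0557, 0.0592 and 0.0643, with 90, 60 and 55 genes called in all against 287. No gene of these lists was called between the cell types on 5d, where 0.155% of all genes were.

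All 18 proliferation genes fell in both cell types, with medians of -3.03 and -2.64, and the summed level was 512 to 789 FPKM on 0d and 102 to 131 FPKM on 5d. *Ccnb1* fell by 3.98 and 3.96 and *Plk1* by 3.86 and 3.87. *Mcm4*, a subunit of the replicative helicase, fell by 2.16 in WT cells and by 1.24 in PPARγ/+ cells, and was called in the interaction (0.91, adjusted p = 0.0498), which held in 3 of the 12 fits that left out 1 library. Other markers moved with the day as well. Of 5 fibroblast markers tested, 4 rose in WT cells and 5 in PPARγ/+ cells, and of 8 adipocyte markers 1 rose in WT cells and 7 in PPARγ/+ cells, with medians of 0.06 and 2.34. Of the 7 myoblast markers 3 rose and 1 fell in WT cells, and 5 rose in PPARγ/+ cells. Between the cell types, the adipocyte markers summed to 5.84 to 8.11 FPKM in WT_0d and 11.7 to 18.3 FPKM in PPARγ/+_0d, and to 6.19 to 9.79 FPKM in WT_5d and 48.6 to 149 FPKM in PPARγ/+_5d. The myoblast markers summed to 221 to 398 FPKM in WT_0d and 106 to 147 FPKM in PPARγ/+_0d. The summed level of the proliferation genes was apart between the days but overlapped between the cell types on each day. Those of the adipocyte markers were apart between the cell types on both days, and those of the myoblast markers on 0d. The part of the proliferation genes and of these markers in the members' differences was not tested.

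**Figure D4:**
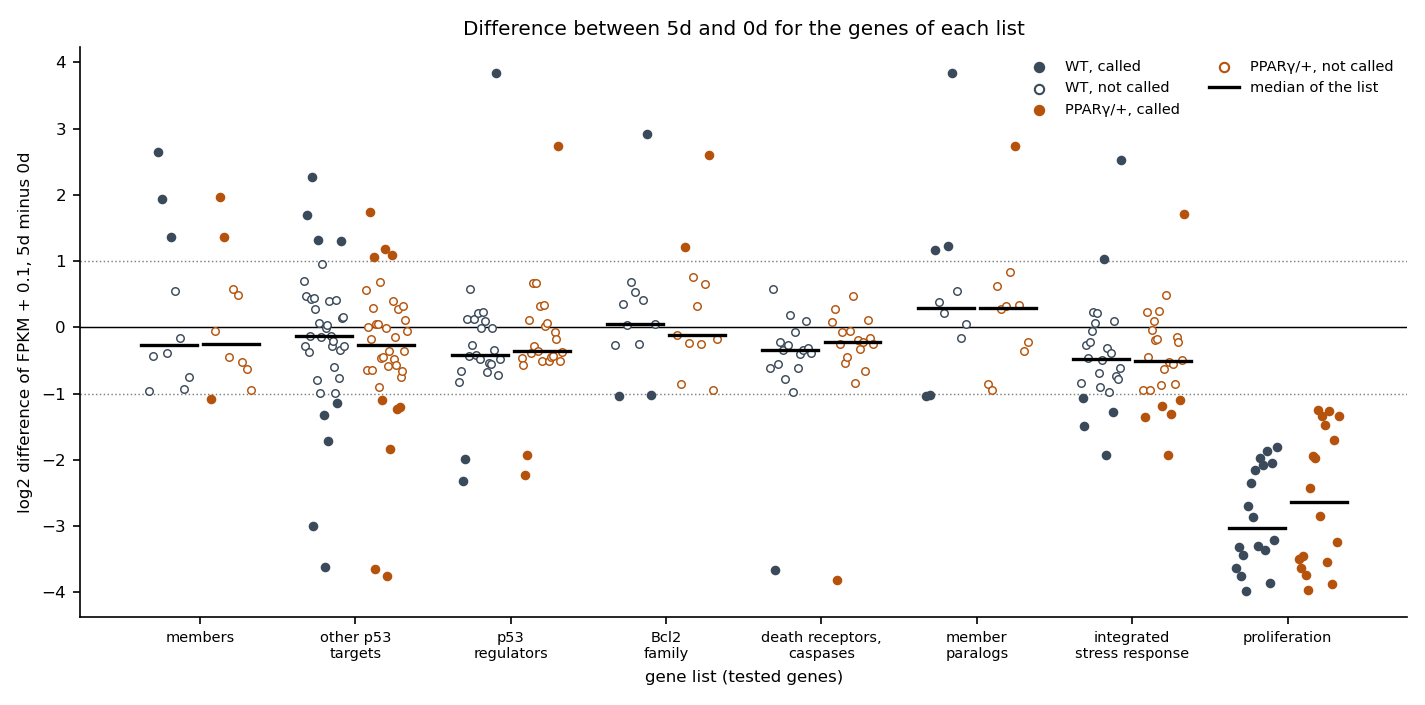
Difference between 5d and 0d (y axis, log2 of FPKM + 0.1) for each tested gene of the 8 lists (x axis) in WT and PPARγ/+ cells. Filled points are called changed, horizontal bars are the medians of the lists and dotted lines mark 2-fold. The proliferation genes are all below -1, while the members and the other p53 targets lie on both sides of 0 with medians between -0.27 and -0.13.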

How the data were processed

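RNA-seq libraries of 12 C2C12 samples were analysed, 3 in each of 4 groups taken from the sample labels. According to the methods of the study, trimming was done with Trim Galore and alignment to GRCm38 with STAR, and the authors counted reads with HTSeq and deposited the levels as FPKM. The submitters' processing notes name STAR but mm9 as the build, and coordinates given here were looked up by Ensembl ID in a GRCm38 annotation. A second deposited table holds log2(FPKM + 1) of the same values, within 5.3e-14, and was only checked. FPKM was turned back into fragments with the transcript lengths of GENCODE M21 for 21058 genes and with an inferred length for 6079, at a tolerance of 0.001 of a whole number, and 1 gene could not be recovered. These fragments gave the depth, which sets the counting error, and an alternative test.

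Differences were tested with limma 3.58.1 (R 4.3.3, empirical Bayes with trend) on log2(FPKM + 0.1), over 18023 genes. Days were compared within the 6 libraries of a cell type, cell types within the 6 libraries of a day, and the interaction over all 12. Adjusted p-values are those of Benjamini and Hochberg over all genes tested. An exact permutation test of 3 against 3 libraries cannot go below p = 0.1 and was not used. Tables and figures were made with Python 3.11.15, numpy 2.4.6, pandas 2.3.3 and matplotlib 3.10.9.

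The list of further p53 targets leaves out 1 gene that is not reported here. The members and the gene lists were chosen with earlier results of these data known. Named were all members, *Pparg*, *Cdkn1a*, *Ccng1* and *Mdm4*, the 2 called genes of each list with the largest rise and the 2 with the largest fall in each comparison of the days, list genes called in another comparison, and the 3 genes most like *Trp53* and *Mdm2*. The pseudogene, the shared exons and the p53 targets in the closing section were described after their values were seen. The alternatives changed the value added to the FPKM, the filter, the scaling, the thresholds, the libraries in the fit, their weights and the test.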

Additional observations from a re-analysis of the deposited data

Results flagged for a closer look

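None of the 10 p53 genes was singled out by the test of the interaction, and groups of 3 libraries are too small for a test of single libraries. Of all genes 0.76% passed that test, and 1 of the 7 myoblast markers did. Among the other listed genes, *Mcm4* changed between the days to a different degree in the 2 cell types by the interaction term of limma. It was at 32.8, 38.3 and 43.4 FPKM in WT_0d and at 8.16, 8.04 and 9.11 FPKM in WT_5d. The PPARγ/+ libraries were at 28.1, 19.7 and 23.7 FPKM on 0d and at 9.42, 10.1 and 10.3 FPKM on 5d, and the interaction was 0.91 (adjusted p = 0.0498). It missed the threshold in 9 of the 12 fits that left out 1 library and passed without WT_0d replicate 1, WT_5d replicate 3 or PPARγ/+_0d replicate 1. It also missed it in 7 of the 9 other alternatives, and passed with the filter at 1 FPKM and with array weights, and the adjusted p was up to 0.144 over all of them.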

How the results depend on the processing

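Of 890 values of the members under the alternatives, 846 kept their direction and their side of the threshold, 7 lost the call, 16 gained it and 21 turned direction. For the other named genes these were 1279 of 1378, with 59, 26 and 14. The 3 members called in WT cells became 6 and the 3 in PPARγ/+ cells 9 with an adjusted p-value of 0.05 at any fold, and 2 to 5 in WT cells with 1 library left out (5 without WT_5d replicate 3). With array weights, whose estimation gave convergence warnings, 1 member was called in the interaction and 1 between the cell types on 5d, against 0, and on 5d there were 0 to 1 with 1 library left out.

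All values that turned direction were small. With array weights *Mdm2* on 0d was 0.063, *Gadd45a* on 0d 0.12, *Sesn1* in the interaction 0.089 and *Mdm4* on 0d 0.0066. With median-ratio scaling *Bbc3* in PPARγ/+ cells was 0.073, *Ccng1* in WT cells 0.0048 and *Gdf15* in PPARγ/+ cells 0.13, and the last was 0.14 with quantile normalization, 0.0007 with 1 added to the FPKM and 0.0020 with voom. With 1 library left out the interaction ranged from -0.24 to 0.0295 for *Mdm2* and from -0.22 to 0.072 for *Sesn1*. The difference between the cell types on 0d ranged from -0.10 to 0.17 for *Mdm2*, from -0.021 to 0.18 for *Bax*, from -0.41 to 0.28 for *Gadd45a*, from -0.0049 to 0.29 for *Sesn1*, from -0.029 to 0.34 for *Cdkn1a* and from -0.095 to 0.0498 for *Mdm4*. On 5d it ranged from -0.105 to 0.021 for *Bax*, from -0.027 to 0.13 for *Sesn2* and from -0.0073 to 0.078 for *Zmat3*. The difference between the days ranged from -0.17 to 0.10 for *Bbc3* and from -0.17 to 0.11 for *Gdf15* in PPARγ/+ cells, and from -0.37 to 0.10 for *Sesn2* and from -0.22 to 0.0058 for *Ccng1* in WT cells. The cause was not tested for any of these.

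Over all genes, the 2970 called in WT cells were 1441 with 1 added to the FPKM and 6681 with the adjusted p-value at any fold, and the 2735 in PPARγ/+ cells were 1241 and 8569, or 1806 with the filter at 1 FPKM. The 287 called on 0d were 115 with 1 added, 107 without a filter, 675 at any fold, 485 with voom and 55 to 137 with 1 library left out. The 28 called on 5d were 8 with 1 added, 71 with 0.01 added, 199 with all 12 libraries in the fit, 502 with array weights, 43 with voom and 1 to 723 with 1 library left out. The 137 of the interaction were 2070 with array weights and 42 to 527 with 1 library left out.

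With the replicate number as a block the members called stayed at 3 in WT cells, 3 in PPARγ/+ cells and 0 in the other comparisons, while over all genes 61 were called in the interaction and 0 on either day between the cell types. Libraries of the same number correlated at r = -0.07 to 0.08 in their deviations from the group means. They were best matched by their own number in all 3 pairs only in PPARγ/+ cells across the days. With 3 libraries a group these values cannot decide whether libraries of the same number were paired, and the labels give only the number.

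Genes at few fragments, such as *Trp63* on 0d, have fold changes that depth limits, and with 3 libraries a group a difference such as that of *Pmaip1* on 5d could not be placed within a narrow interval.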

Other observations

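The p53 targets called between the days and not yet described were named here after their values were seen. *Pidd1*, which encodes a death domain protein of the PIDDosome, fell by 1.71 on the log2 scale in WT cells, from 2.45 to 3.37 FPKM on 0d to 0.659 to 0.911 FPKM on 5d, and by 1.83 in PPARγ/+ cells. *Slc19a2*, a thiamine transporter gene, fell by 1.14 and 1.19, and the former was not called without WT_5d replicate 1 (-0.96) or with 1 added to the FPKM (-0.93). *Eda2r*, a receptor of the TNF receptor family like Fas, rose by 1.32 in WT cells and was at 0.69 in PPARγ/+ cells (adjusted p = 0.00362), with the libraries of the days apart in both. *Rps27l*, a ribosomal protein paralog, fell by 1.22 in PPARγ/+ cells and was at -0.996 in WT cells, and *Epha2*, an ephrin receptor gene, fell by 1.09 and was at -0.996, so that both lay at the threshold of 2-fold in WT cells. The call of *Epha2* in PPARγ/+ cells was lost without PPARγ/+_0d replicate 1 (-0.87), with median-ratio scaling (-0.96), with quantile normalization (-0.95) and with array weights (-0.98). *Plk2*, a polo-like kinase gene, rose by 1.09 in PPARγ/+ cells, from 18.3 to 23.4 FPKM to 44.4 to 48.5 FPKM, and was at 0.40 in WT cells, where its libraries of 0d were already at 31.2 to 47.6 FPKM. Without PPARγ/+_0d replicate 2 its difference was 0.98 and not called.

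*Gdf15*, which encodes a secreted stress cytokine, fell by 1.32 in WT cells, from 12.1, 7.47 and 6.25 FPKM to 3.92, 3.53 and 2.49 FPKM. In PPARγ/+ cells it was at 7.57, 7.93 and 8.31 FPKM on 0d and at 6.74, 7.33 and 10.1 FPKM on 5d, which overlapped. The interaction was 1.32 and did not pass (adjusted p = 0.122). *Trp53cor1*, a long noncoding RNA gene next to *Cdkn1a*, rose by 1.31 in WT cells and was at 0.32 in PPARγ/+ cells, at 0.282 to 1.26 FPKM over all libraries, and with 1 added to the FPKM in place of 0.1 the WT value was 0.57 and not called. An antisense gene model, AC167363.1, shares 44.1% of its exonic bases, and without a stated strand the reads there cannot be assigned to one of them.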
